A study of Mus musculus with 12 samples.

Results

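The difference between light zone and dark zone germinal center B cells was measured over treated and untreated lupus-prone mice together. All 12 libraries of the series entered it, 6 from light zone and 6 from dark zone cells, with treatment as a covariate. Genes were followed where the fitted difference had 1 sign in the untreated and in the treated libraries. Of 12081 tested genes (among 12212 gene symbols), 6610 did so (54.7%), 3470 of them higher (28.7%) and 3140 lower (26%) in the light zone; in the other 5471 the 2 treatments gave opposite signs.

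The cells came from the spleen of NZBWF1/J mice, a hybrid strain that develops an autoimmune disease like human lupus. Each library was made from 1000 cells sorted by flow cytometry as germinal center dark zone or light zone B cells. The 4 groups of 3 libraries were dark zone control, light zone control, dark zone treated and light zone treated. Control mice were untreated, and treated mice had received CTLA4-Ig (6 doses of 200 ug), a fusion protein that blocks the costimulatory ligands CD80 and CD86, together with anti-CD40L (6 doses of 250 ug), an antibody to the T cell ligand of CD40. Doses were given over 2 weeks to mice aged 18 weeks at the start; the labels give no age for the control mice. They name neither the antibodies of the sort nor which mouse gave which library, so genes of the sort markers may differ because of the sort, and p-values measure only the spread between these libraries.

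A germinal center is the site in a lymphoid organ where B cells improve their antibodies. In the dark zone, cells divide and mutate their antibody genes, and the chemokine receptor CXCR4 keeps them there. In the light zone they take up antigen, present it on MHC class II to follicular helper T cells, and receive CD40 and antigen receptor signals that switch on NF-kB and, in selected cells, MYC. Both zones exchange cells, and the proteins CXCR4, CD83 and CD86 are the usual means to tell them apart.

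Total counts were 16032746 to 26508527 in the dark zone and 17307186 to 26837714 in the light zone libraries. Values are given as normalised read counts (CPM, the count of a gene relative to the scaled total of its library), and differences as log2 light zone minus dark zone with their standard error (SE). A floor of 3 counts lay at 0.0776 to 0.206 CPM, which covers counting error only. The B cell genes Cd79a (1689 to 3278 CPM) and Ms4a1 (1337 to 3165 CPM) were measured in all 12 libraries. The libraries of treated dark zone replicates 1 and 2 and of treated light zone replicate 2 stood apart: they had counts for 12188 to 12195 symbols, against 11384 to 11960 in the other 9, and scaling factors of 1.35 to 1.44, against 0.815 to 0.988. Summed macrophage markers were 172.6 and 187.7 CPM in the 2 dark zone and 419 CPM in the light zone library of these 3, against 27.78 to 115.3 CPM in the other 9. Results that rest on these 3 libraries are given with and without them. The median log2 difference over all tested genes was 0.06 with this scaling and -0.06 with library totals alone, so list medians are to be read against that shift.

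Light and dark zone libraries were first compared for Cd83, Cd86 and Anxa2, the genes named as markers of the comparison. Cd83, a surface protein that light zone B cells carry, was at 361, 655 and 508 CPM in light zone control and at 756, 628 and 617 CPM in light zone treated libraries. In the dark zone it was at 309, 52.5 and 237 CPM in control and at 143, 162 and 217 CPM in treated libraries. All 6 light zone libraries thus lay above all 6 dark zone libraries, with dark zone control replicate 1 the closest to them. Cd86, which encodes a ligand of CD28 and CTLA4 on T cells, was at 233, 171 and 192 CPM in light zone control and at 240, 108 and 121 CPM in light zone treated libraries. Its dark zone values were 11.1, 30.7 and 58.6 CPM in control and 36.2, 38.2 and 105 CPM in treated libraries. Here the zones were separated by a narrow margin among treated libraries, where dark zone replicate 3 reached 105 CPM and light zone replicate 2 stood at 108 CPM. CD86 is also the protein that CTLA4-Ig binds, and its mRNA difference was 2.57 (SE 0.65) in control and 1.39 (SE 0.63) in treated libraries.

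Anxa2 encodes annexin A2, a protein that binds membranes in a calcium-dependent way. It was at 79.3, 66.1 and 113 CPM in light zone control and at 65.7, 58.4 and 49.9 CPM in light zone treated libraries. Dark zone values were 218, 247 and 225 CPM in control and 177, 165 and 251 CPM in treated libraries. Every dark zone library lay above every light zone library, and no library lay between 113 and 165 CPM. The 3 genes differed by 1.80 (Cd83), 2.17 (Cd86) and -1.60 (Anxa2) on the mean log2 CPM scale, each with an exact two-sided p of 0.005, the smallest that the 400 arrangements of zone labels within treatment allow. These genes were chosen with their values known, so the p-values describe them and support nothing further. Without the 3 libraries that stood apart the differences were 1.67, 1.79 and -1.77, with exact p of 0.0167, 0.0333 and 0.0167 over 60 arrangements. On mm10, Cd83 lies at chr13:43784775-43803132, Cd86 at chr16:36603869-36666081 and Anxa2 at chr9:69453620-69491795.

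**Figure D1:**
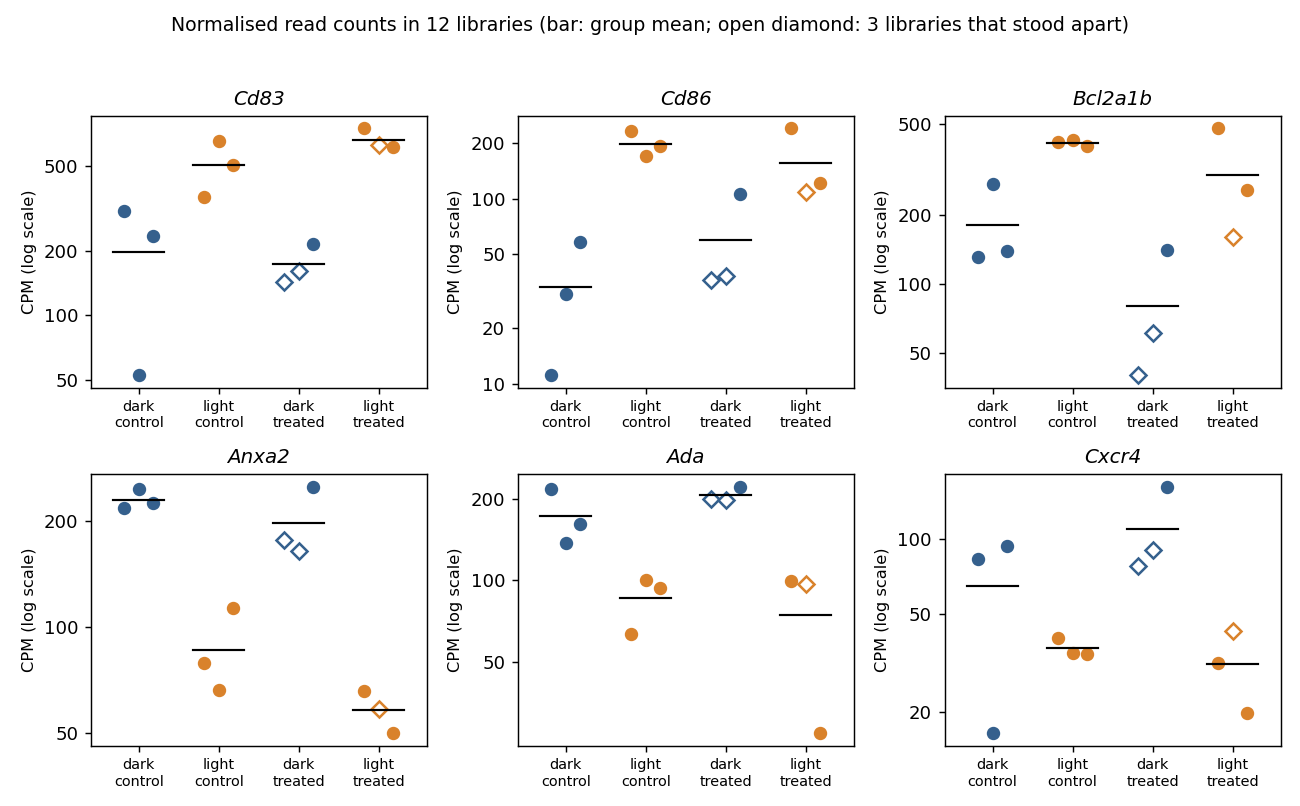
Normalised read counts (CPM, log axis) of 6 genes in the 4 groups of 3 libraries; each point is a library, the bar is the group mean, and open diamonds are the 3 libraries that stood apart. The zones do not overlap for Cd83, Cd86, Anxa2 and Ada, though those of Ada do with library totals alone. Bcl2a1b overlaps only across treatments and Cxcr4 only through dark zone control replicate 2, at 16.5 CPM.

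Across all genes, the fit by edgeR's quasi-likelihood test, with p-values adjusted over 12081 genes, called 0 genes in either direction (0%). At an unadjusted p under 0.05 there were 493 genes (4.08%), 262 higher (2.17%) and 231 lower (1.91%) in the light zone. The smallest adjusted p was that of Anxa2 (0.103, log2 difference -1.59, SE 0.21, lower in 6 of 6 light zone libraries than in any dark zone library), and it ran from 2.89e-10 to 0.563 over the other settings. DESeq2 called 23 genes (0.19%), 11 higher and 12 lower. By adjusted p they included Anxa2 (2.89e-10), Cd3g (2.79e-05), Hist2h2ab (0.000869), Cd83 and Cd86 (0.0284 each), Prdx6 (0.0357), and Map9 and Top1 (0.0446 each). In limma-voom with quality weights 0 genes were called (604 at an unadjusted p under 0.05). With a term for the 3 libraries that stood apart, edgeR called 2 genes (0.0166%), Anxa2 (adjusted p = 0.0217) and Cd52 (adjusted p = 0.00101). Without these libraries it called 0, with 722 genes at an unadjusted p under 0.05 (5.98%). The term was chosen after the data were seen, and without these libraries the edgeR adjusted p of Anxa2 was 0.435. All genes below are therefore given by their values, and none as changed.

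In 23 genes (0.19%) the 6 light zone libraries did not overlap the 6 dark zone libraries, with 12 higher (0.0993%) and 11 lower (0.0911%). Within each treatment on its own, 64 genes had zones that did not overlap, in the same direction (0.53%), with 33 higher (0.273%) and 31 lower (0.257%). Separation in 1 treatment only was not counted over all genes. Where it is given below, it describes that gene alone. The set of 23 depended on the scaling: with library totals alone 30 genes were separated, and 9 were in both sets. Of those 9, Cd83, Cd86, Cd3g, BC018473 and Armc2 were higher in the light zone, and Anxa2, Nf2, Map9 and Hist2h2ab lower. Outside the naming rule, BC018473, Armc2, Nf2, Map9 and Hist2h2ab are named after their values were seen. BC018473 was at 104 to 237 CPM in the light zone and at 37.9 to 94.9 CPM in the dark zone, and Armc2 at 3.88 to 10.6 against 1.11 to 3.85 CPM. Nf2, which encodes the tumour suppressor merlin, was at 0.115 to 12.7 CPM in the light zone and at 14.1 to 29.6 CPM in the dark zone. Map9, a microtubule-associated protein of the mitotic spindle, was at 2.05 to 3.96 against 4.49 to 16.4 CPM. Hist2h2ab, a histone H2A gene, was listed at 0 in 5 light zone libraries and at 0.103 CPM, near the floor, in the other, against 0.823 to 9.36 CPM in the dark zone.

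A zone difference in control libraries was compared with the same difference in treated libraries, which share no library with them. Of 7777 genes that averaged 10 CPM or more in their higher zone, 4395 (56.5%) had the same sign in both treatments. Of the 293 such genes at an unadjusted p under 0.05 in control libraries, 203 (69.3%) had the same sign in treated libraries, and of the 191 at that p in treated libraries, 150 (78.5%) had the same sign in control libraries. These shares are descriptions, since genes are not independent of one another. The difference between the treatments' zone differences was tested for each gene as an interaction: 0 genes passed in edgeR (275, or 2.28% of those tested, had an unadjusted p under 0.05), DESeq2 called 16 and limma-voom 0 (539 and 1759 at an unadjusted p under 0.05). Without light zone treated replicate 2, edgeR gave 0 calls and 1218 genes at that unadjusted p. For Cd83 the interaction was 0.59 (SE 0.74, unadjusted p = 0.444), for Cd86 -1.18 (SE 0.87, unadjusted p = 0.204) and for Anxa2 -0.35 (SE 0.43, unadjusted p = 0.431).

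**Figure D2:**
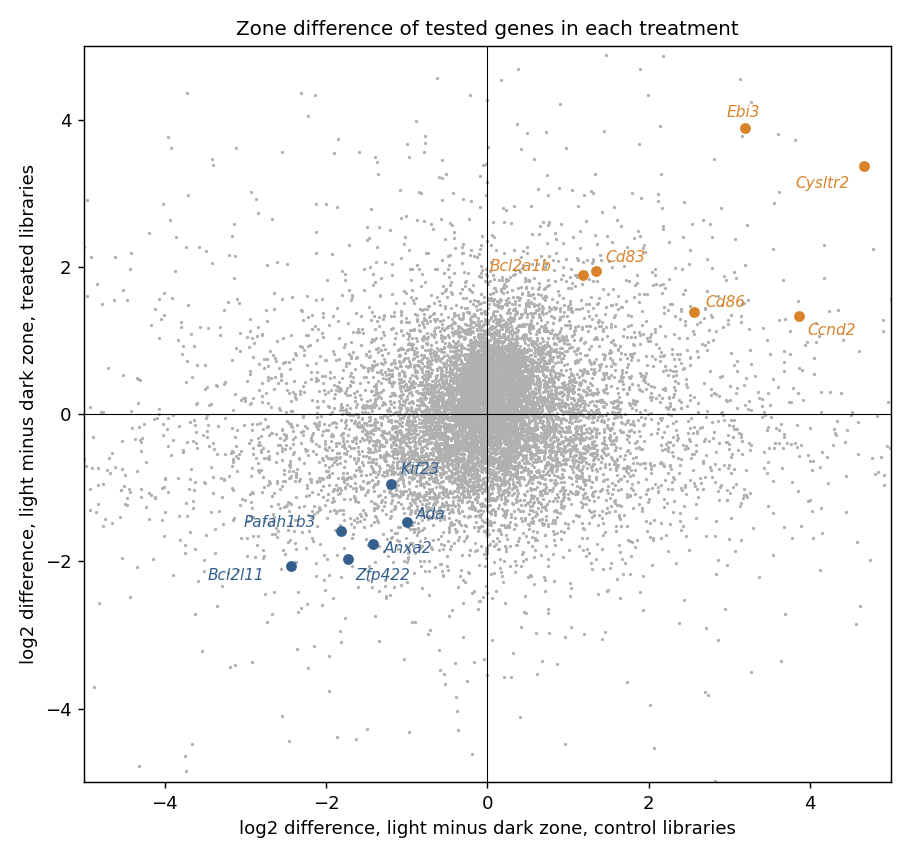
Log2 difference, light minus dark zone, of each tested gene in control (horizontal axis) and treated libraries (vertical axis); 11802 of 12081 genes lie within the limits of 5 and 279 lie outside. Named genes higher in the light zone are orange and named genes lower in it are blue; Cd83, Cd86 and Anxa2 lie in the quadrants of a single sign.

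Genes of the light zone program were mostly higher in the light zone. Of its 26 measured members 22 had a higher value and 4 a lower one, where 53.9% of all tested genes had a higher value. At an unadjusted p under 0.05 were 10, all higher, beside 2.17% of all tested genes higher at that p. In both treatments 21 members were higher, beside 28.7% of all tested genes. The median log2 difference was 0.98, against 0.06 over all tested genes, and it was 1.13 without the 3 libraries that stood apart. Cd40, the receptor for the T cell ligand that the treatment blocked, was at 59.9 to 116 CPM in the light zone (median 103) and at 36.1 to 71.8 CPM in the dark zone (median 55.0). Treated libraries did not overlap between the zones for Cd40 and control libraries did. Its interaction in edgeR was 0.62 (SE 0.53, unadjusted p = 0.263) and did not pass. Batf, a transcription factor of activated lymphocytes, was at 46.1 to 185 CPM against 21.9 to 68.6 CPM, and Id2, an inhibitor of helix-loop-helix transcription factors, at 49.0 to 145 against 14.9 to 56.3 CPM. Ebi3, a cytokine subunit, rested on few libraries: it was at 14.6, 14.9 and 75.2 CPM in 3 light zone libraries and at 0.654 to 0.819 CPM in the other 3, while dark zone libraries were at 0.101 to 4.96 CPM.

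Ccnd2 encodes cyclin D2, which drives entry into the cell cycle after T cell help. It was at 23.3, 109 and 93.0 CPM in light zone control against 1.30, 1.16 and 12.99 CPM in dark zone control libraries. In treated libraries it was at 57.9, 207 and 46.0 CPM against 16.04, 82.3 and 25.7 CPM. There the zones overlapped only through dark zone replicate 2, among the libraries that stood apart. The difference was 3.86 (SE 1.18) in control and 1.33 (SE 1.07) in treated libraries, and the interaction of -2.54 (SE 1.51) had an unadjusted p of 0.122. Over both treatments the difference was 2.59 (SE 0.90). It was 2.93 without the 3 libraries that stood apart and 2.71 with a term for them. Myc, the growth regulator of selected light zone cells, was at 21.8 to 75.6 CPM in the light zone and at 13.8 to 48.5 CPM in the dark zone, which overlapped in both treatments (log2 difference 0.61, SE 0.47). The 4 members with a lower value were Il4ra, Il21r, Gpr183 and Traf1 (a CD40 adaptor, -0.33). Il4ra, the interleukin-4 receptor, differed by -0.45 (SE 1.09), Il21r, the interleukin-21 receptor, by -0.24 (SE 0.55) and Gpr183, an oxysterol receptor that guides B cells out of the follicle centre, by -1.05 (SE 1.18). The sign of each of these 3 turned under at least 1 other setting.

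CD40 and NF-kB targets share 9 genes with that program. Of 26 members 18 were higher and 8 lower (69.2% higher, beside 53.9% of all tested genes). At an unadjusted p under 0.05 were 8 and 1, beside 2.17% and 1.91% of all tested genes. The median was 0.69 (0.66 without the 3 libraries). Bcl2a1b, an inhibitor of cell death with near-identical copies among which reads can be split, was at 416, 425 and 402 CPM in light zone control and at 479, 160 and 259 CPM in light zone treated libraries. In the dark zone it was at 132, 274 and 139 CPM in control and at 40.02, 61.0 and 141 CPM in treated libraries. The zones were separate within each treatment, and overlapped across treatments. Its copy Bcl2a1d was at 24.8 to 91.4 CPM against 6.02 to 47.8 CPM. Nfkbia, the inhibitor of NF-kB that NF-kB itself induces, was at 136 to 596 CPM in the light zone and at 123 to 293 CPM in the dark zone (log2 difference 0.70, SE 0.25), with control libraries overlapping and treated ones not. In the opposite direction within the BCL2 family, Bcl2l11 (BIM), which promotes cell death, was at 0.585 to 9.75 CPM in the light zone and at 5.41 to 39.6 CPM in the dark zone (log2 difference -2.25, SE 0.70). Over the whole family, 8 of 15 members were higher (53.3%, beside 53.9% of all tested genes) and 7 lower, with a median of 0.14.

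A form of DNA that NF-kB can bind is GGG, any 2 bases and then TTTCC. The sequence before the start of a gene shows whether this form is present near a member. Other forms that NF-kB binds were not searched, so a window without this one may hold another. RefSeq promoter windows on GRCm38.p6 were limited to the 250 bases before each start. Of the list, 6 of 28 windows (21.4%, for 21 of its 26 genes) held the form on either strand. The share was 464 of 32851 windows of all genes (1.41%) and 179 of 11817 windows of tested genes (1.51%). The windows belonged to Bcl2l1, Nfkb2 (2 windows), Nfkbia, Rel and Tnfaip3. The list was drawn up as targets of NF-kB, so this share does not bear on the zone difference. The window of Nfkbia, at chr12:55492648-55492897 on the minus strand and written 5′ to 3′ along the gene, is shown because its mRNA was measured above and it holds such a form, in capitals, read on the other strand.
Nfkbia: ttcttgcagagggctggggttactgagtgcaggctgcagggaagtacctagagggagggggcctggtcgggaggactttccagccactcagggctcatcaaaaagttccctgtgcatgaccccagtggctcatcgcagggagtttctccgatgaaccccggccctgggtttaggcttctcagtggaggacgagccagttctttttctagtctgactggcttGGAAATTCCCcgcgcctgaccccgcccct
A match is a description of the letters and not of binding. None of these 3 forms (this one and the pair searched below) was found in the window of Anxa2, the gene with the smallest p, at chr9:69453433-69453682 on the plus strand.
Anxa2: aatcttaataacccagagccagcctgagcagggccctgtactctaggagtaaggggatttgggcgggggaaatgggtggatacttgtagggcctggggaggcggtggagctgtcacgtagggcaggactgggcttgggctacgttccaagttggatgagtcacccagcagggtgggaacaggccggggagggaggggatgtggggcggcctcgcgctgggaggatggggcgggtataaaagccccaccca

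Antigen presentation genes of MHC class II were higher in 12 of 14 measured members (85.7%, beside 53.9% of all tested genes). Of them 4 were at an unadjusted p under 0.05, where 2.17% of all tested genes were higher at that p. In both treatments 11 members were higher, beside 28.7% of all tested genes. The median difference was 0.39, and 0.33 without the 3 libraries. H2-Aa, the alpha chain of the I-A molecule, was at 3222 to 5824 CPM in the light zone and at 1734 to 3888 CPM in the dark zone (log2 difference 0.74, SE 0.24). Cd74, the invariant chain that guards the peptide groove, was at 11160 to 18300 CPM against 9329 to 13420 CPM (0.48, SE 0.19). Ifi30, a thiol reductase that unfolds antigens, was at 297 to 546 CPM against 97.1 to 301 CPM, with the zones separate within each treatment (0.99, SE 0.26). Ctss, the protease cathepsin S that trims the invariant chain, was at 338 to 814 CPM against 190 to 609 CPM. Light zone treated replicate 2 was the lowest light zone library for H2-Aa and Ctss and the highest for Ifi30.

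The dark zone program went mostly the other way. Of its 18 measured members 15 were lower and 3 higher in the light zone (16.7% higher, beside 53.9% of all tested genes). Of the lower ones 5 were at an unadjusted p under 0.05, where 1.91% of all tested genes were lower at that p. In both treatments 13 members were lower, beside 26% of all tested genes. The median was -0.53 (-0.62 without the 3 libraries). Cxcr4, which anchors cells to the dark zone through its ligand CXCL12, was at 39.8, 34.8 and 34.3 CPM in light zone control and at 31.8, 42.6 and 19.9 CPM in light zone treated libraries. Its dark zone values were 83.4, 16.5 and 93.7 CPM in control and 77.9, 90.1 and 163 CPM in treated libraries. Dark zone control replicate 2 alone lay below the light zone range, and the other 5 dark zone libraries lay above it. The log2 difference was -1.32 (SE 0.44). Pafah1b3, a subunit of an acetylhydrolase of platelet-activating factor, was at 52.5 to 278 CPM in the light zone and at 210 to 896 CPM in the dark zone (-1.70, SE 0.46). Bach2, a repressor of plasma cell genes, was at 101 to 267 CPM against 171 to 399 CPM. Foxo1, a transcription factor needed to form the dark zone, differed by -0.19 (SE 0.46) and by 0.24 without the 3 libraries.

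Genes that mark germinal center B cells in general also tended to lower values in the light zone. Of 20 members 14 were lower and 6 higher (30% higher, beside 53.9% of all tested genes), with a median of -0.55. The list shares 5 genes with the dark zone program. Of the 20 members 4 were lower at an unadjusted p under 0.05 and 0 higher, beside 1.91% and 2.17% of all tested genes. Pou2af1, a B cell coactivator of transcription, was at 250 to 612 CPM against 548 to 939 CPM (-0.72, SE 0.24), and Nuggc, a nuclear GTPase of germinal center B cells, at 9.64 to 62.3 against 35.4 to 147 CPM. Bcl6, the master regulator of germinal center B cells, was at 57.2 to 126 CPM in the light zone and at 59.7 to 265 CPM in the dark zone, a difference within the spread (-0.38, SE 0.34). The same held for S1pr2, a receptor that confines cells to the germinal center (-0.56, SE 0.41). Ezh2, a histone methyltransferase of dividing germinal center cells, was lower by more in control (-1.25, SE 0.40) than in treated libraries (-0.04, SE 0.39); the interaction of 1.21 (SE 0.56) had an unadjusted p of 0.0532 and did not pass.

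Genes of G2 and mitosis were lower in the light zone in 21 of 28 members and higher in 7 (25%, beside 53.9% of all tested genes). At an unadjusted p under 0.05 were 4, all lower, where 1.91% of all tested genes were lower at that p. In both treatments 13 members were lower and 2 higher. The other 13 had opposite signs in the 2 treatments, as had 5471 of the 12081 tested genes. Of the members, 6 are also in the dark zone program. The median was -0.37; it was -0.55 with a term for the 3 libraries, -0.32 without them (2 lower and 1 higher at an unadjusted p under 0.05) and -0.18 without dark zone treated replicate 3. Genes of DNA replication in S phase were split, 14 higher and 14 lower, with a median of 0.01 and 0 at an unadjusted p under 0.05. Cdc20, an activator of the complex that ends mitosis, was at 52.0, 54.0 and 37.1 CPM in light zone control against 98.9, 78.3 and 107 CPM in dark zone control libraries. In treated libraries it was at 32.1, 128 and 114 CPM against 305, 435 and 48.9 CPM. The control zones were separate, and dark zone treated replicate 3 lay below 2 light zone treated libraries. The highest of all 12 were treated dark zone replicates 1 and 2, both among the libraries that stood apart, and without the 3 such libraries the difference of -1.26 (SE 0.48) became -0.54. Kif23, a kinesin that builds the midzone of the spindle, was at 12.7 to 58.3 CPM against 50.2 to 99.5 CPM and separate within each treatment (-1.07, SE 0.31; -1.15 without the 3 libraries). Racgap1, its partner in cell division, was at 25.97 to 94.6 against 50.6 to 167 CPM (-1.04, SE 0.30). Hmmr, a spindle protein that binds hyaluronan, was at 35.4 to 74.1 against 47.3 to 138 CPM (-0.86, and -0.41 without the 3 libraries), and Ccna2, cyclin A2, at 73.8 to 262 against 145 to 391 CPM. Mki67, a marker of all cycling cells, was at 251 to 581 against 281 to 632 CPM, a difference within the spread (-0.28, SE 0.29). Top1, the topoisomerase that relieves DNA twist, was at 191 to 261 CPM in the light zone and at 278 to 532 CPM in the dark zone, without overlap (-0.80, SE 0.20). With library totals alone its zones overlapped.

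Promoters of mitotic genes commonly hold a CCAAT box, the site of NF-Y, and a cell cycle homology region, TTTGAA. Among the 25 windows found for 24 of the 28 genes, 20 held CCAAT on either strand (80%). The share was 11120 of 32851 (33.8%) of all windows and 35.9% of windows of tested genes. TTTGAA was in 8 (32%), against 16% of all windows and 11% of windows of tested genes. The list was drawn up as genes of G2 and mitosis, so these shares do not bear on the zone difference. The windows of Cdc20 (chr4:118437344-118437593), Hmmr (chr11:40733438-40733687) and Kif23 (chr9:61946800-61947049), all on the minus strand of GRCm38.p6, are shown because these members had small p-values. Capitals mark CCAAT, or ATTGG where it lies on the other strand, and TTTGAA, which was found once, in Cdc20; no 2 matches overlap.
Cdc20: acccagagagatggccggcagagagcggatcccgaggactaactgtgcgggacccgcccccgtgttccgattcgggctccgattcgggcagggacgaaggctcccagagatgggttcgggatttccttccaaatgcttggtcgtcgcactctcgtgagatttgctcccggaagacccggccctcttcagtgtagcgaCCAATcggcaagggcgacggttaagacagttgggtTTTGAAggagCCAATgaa
Hmmr: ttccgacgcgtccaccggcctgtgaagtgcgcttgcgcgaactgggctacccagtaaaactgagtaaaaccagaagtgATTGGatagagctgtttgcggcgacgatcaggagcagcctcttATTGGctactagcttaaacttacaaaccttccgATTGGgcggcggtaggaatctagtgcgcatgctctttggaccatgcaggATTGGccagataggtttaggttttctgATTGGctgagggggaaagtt
Kif23: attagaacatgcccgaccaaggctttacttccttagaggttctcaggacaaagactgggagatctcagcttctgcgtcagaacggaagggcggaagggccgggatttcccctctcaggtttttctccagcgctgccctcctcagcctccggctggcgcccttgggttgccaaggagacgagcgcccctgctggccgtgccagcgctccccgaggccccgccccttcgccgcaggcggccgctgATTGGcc
Hmmr held 5 such boxes, Cdc20 2 and Kif23 1.

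**Figure D3:**
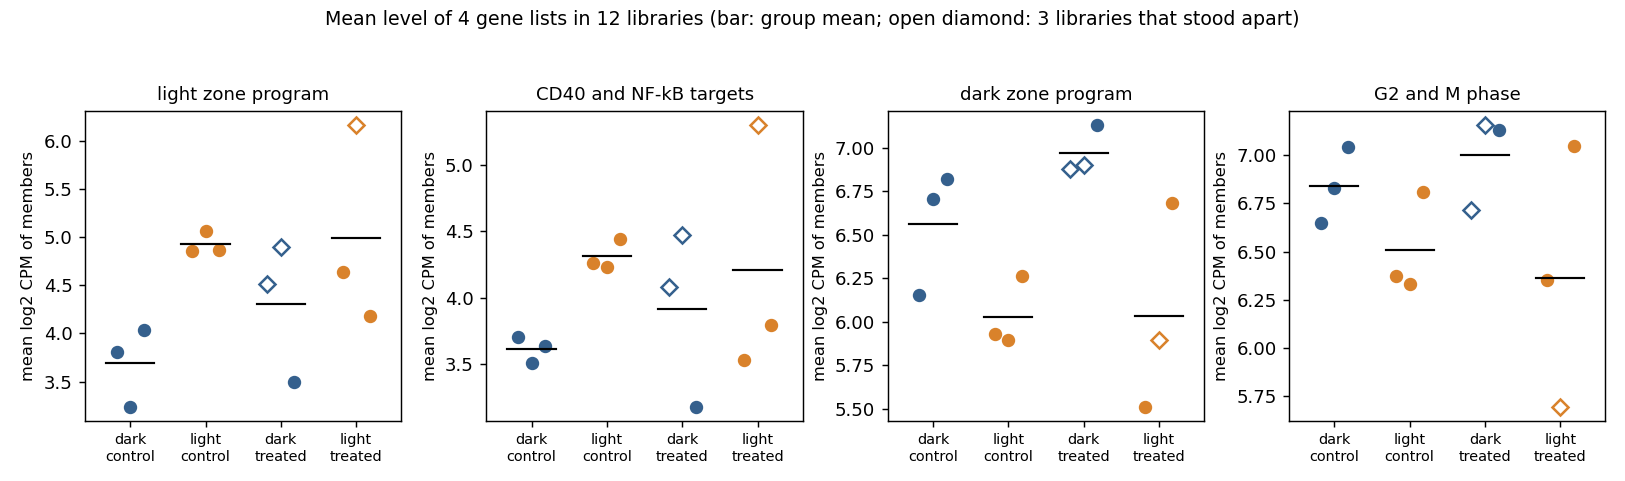
Mean log2 CPM of the members of 4 gene lists (light zone program, CD40 and NF-kB targets, dark zone program, G2 and M phase) in each library by group; bars are group means and open diamonds the 3 libraries that stood apart. The light zone program runs from 4.18 to 6.16 in light zone and from 3.24 to 4.90 in dark zone libraries. Its zones are separate in control libraries and overlap in treated ones, through dark zone libraries that stood apart. Among the other 9 libraries the zones are separate, at 4.18 to 5.07 in light zone and 3.24 to 4.04 in dark zone libraries.

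Genes of ribosome assembly and of MYC were higher in 17 of 27 members (63%, beside 53.9% of all tested genes), with a median of 0.37. At an unadjusted p under 0.05 were 6, all higher, beside 2.17% of all tested genes higher at that p. The median was 0.56 in control and 0.09 in treated libraries, and 12 members were higher in both. Over both treatments it was 0.34 without the 3 libraries that stood apart, all of them treated, and 0.42 with a term for them. Nop58, a core protein of the particles that modify ribosomal RNA, was at 176.5, 176.3 and 176.4 CPM in light zone control and at 269.6, 183 and 276 CPM in light zone treated libraries. In the dark zone it was at 68.0, 129.5 and 134 CPM in control and at 131, 169.9 and 134.5 CPM in treated libraries, so that the zones did not overlap (0.71, SE 0.22). With library totals alone its zones overlapped. Nhp2, a part of the particles that form pseudouridine, was at 249 to 962 CPM against 171 to 449.8 CPM (1.15, SE 0.30), and Nifk, a nucleolar protein that binds Ki-67, at 94.4 to 298 against 58.5 to 144 CPM (1.22, SE 0.31). For both genes light zone treated replicate 2 fell inside the dark zone range and the other 5 light zone libraries lay above it. Npm1, the nucleolar protein nucleophosmin, was at 337 to 1312 against 297 to 758 CPM, Gnl3, the nucleolar GTPase nucleostemin, at 48.9 to 157 against 19.2 to 109 CPM, and Tfrc, the transferrin receptor that imports iron, at 37.1 to 103 against 4.76 to 44.1 CPM. The same replicate was the lowest light zone library for each of these 3.

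Genes of secretion and of the unfolded protein response were also mostly higher. All 15 measured genes of the plasma cell and secretion list had a higher value (median 0.54, lowest 0.03), beside 53.9% of all tested genes. Of them 2 were at an unadjusted p under 0.05. In both treatments 10 were higher, and 5 had opposite signs. Without the 3 libraries that stood apart 14 of 15 were higher, and with a term for them 13. The list shares 4 genes with the unfolded protein response list, where 15 of 18 genes were higher (median 0.39), 3 of them at that p. Of the latter list 10 genes were higher in both treatments, and its median was 0.63 in control and 0.04 in treated libraries, where that of all tested genes was 0.05. The 3 libraries that stood apart were all treated, and their part in the treated median was not tested. Over both treatments the median was 0.54 without them (15 of 18 higher) and 0.53 with a term for them (16 of 18 higher). Manf, a survival factor of the endoplasmic reticulum, was at 847, 735 and 691 CPM in light zone control and at 613, 158 and 911 CPM in light zone treated libraries. Dark zone values were 271, 535 and 327 CPM in control and 99.3, 198 and 217 CPM in treated libraries. Light zone treated replicate 2 was the 1 light zone library inside the dark zone range. Hsp90b1, a chaperone of the endoplasmic reticulum, was at 185 to 499 CPM against 107 to 314 CPM, Canx, the lectin chaperone calnexin, at 160 to 378 against 117 to 203 CPM, and Ssr4, a subunit of the translocon complex, at 49.1 to 273 against 42.5 to 207 CPM. Sdc1, which marks plasma cells, was at 0 to 9.76 CPM in the light zone and at 0 to 3.602 CPM in the dark zone.

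**Figure D4:**
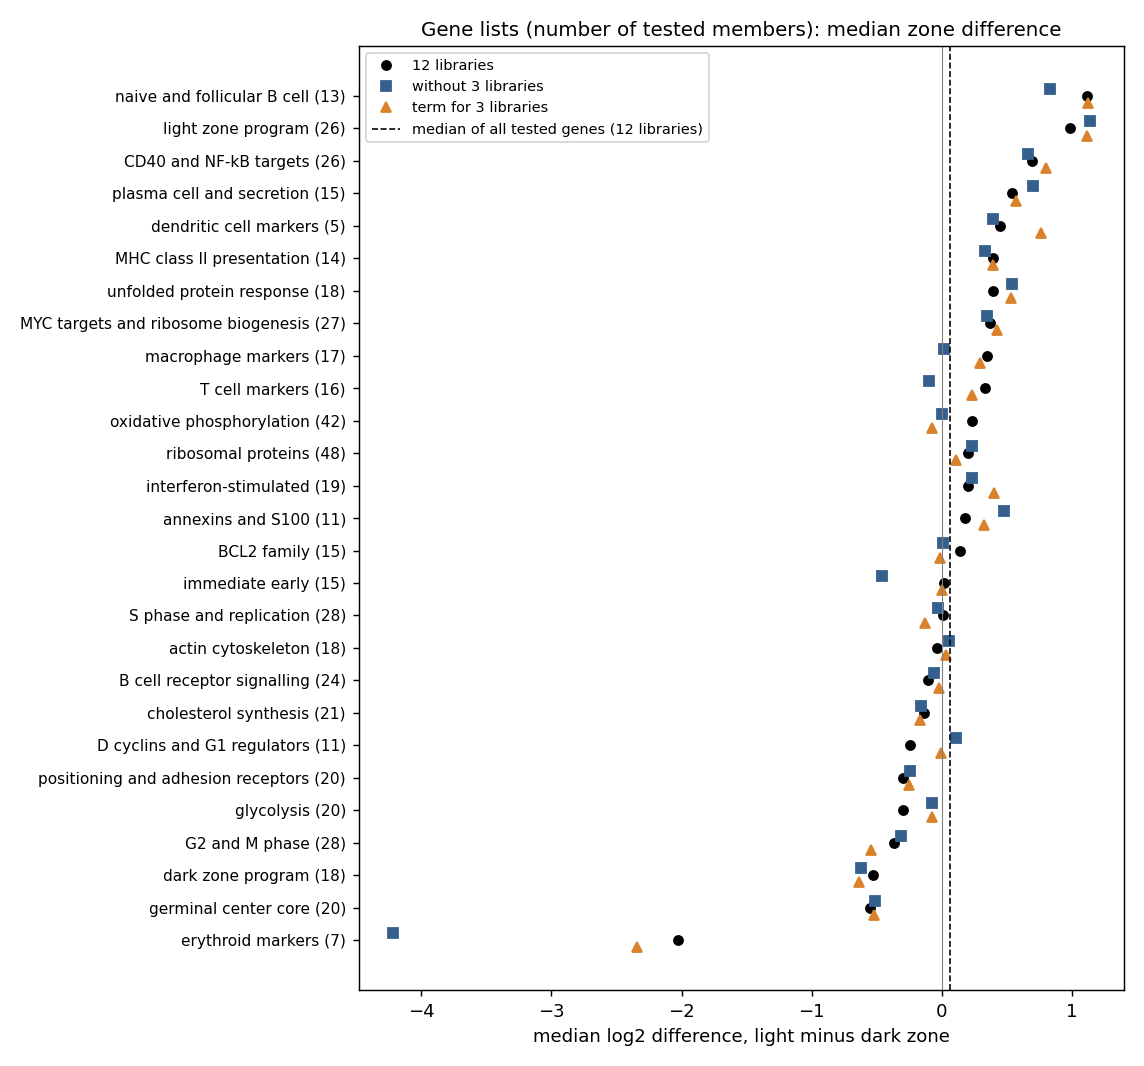
Median log2 difference, light minus dark zone, of each gene list (number of tested members in brackets) over 12 libraries (circles), without the 3 libraries that stood apart (squares) and with a term for them (triangles). The light zone program lies at 0.98, 1.13 and 1.12 and the dark zone program at -0.53, -0.62 and -0.63; the dashed line marks the median of all tested genes.

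Among genes outside these programs, Prdx6, an enzyme that reduces peroxides in membranes, was at 116 to 291 CPM in the light zone and at 67.6 to 137 CPM in the dark zone (1.14, SE 0.26). Cysltr2, a receptor for cysteinyl leukotrienes, was at 9.49, 55.6 and 15.7 CPM in light zone control and at 7.84, 0.802 and 11.4 CPM in light zone treated libraries. Its dark zone values were 0.16 to 2.55 CPM, so light zone treated replicate 2 alone fell inside that range (4.02, SE 0.95). Prex1, which activates the GTPase Rac, was at 8.77, 14.9 and 9.82 CPM in light zone control against 2.40, 1.82 and 3.71 CPM in dark zone control libraries. Treated libraries were higher in both zones, at 35.4, 36.4 and 34.5 CPM against 22.4, 11.97 and 13.1 CPM, and the zones were separate within each treatment. Sssca1 was at 73.2 to 220 CPM in the light zone and at 53.1 to 81.7 CPM in the dark zone (1.19, SE 0.28). Cd52, a short glycoprotein of the lymphocyte surface, was at 2509 to 9647 CPM against 1231 to 5654 CPM (1.15, SE 0.39). With the term for the 3 libraries that stood apart, chosen after the data were seen, the difference was 0.89, with an edgeR adjusted p of 0.00101. Without these libraries the adjusted p was 0.0627.

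Lower in the light zone was Ada, adenosine deaminase, which clears adenosine, at 27.4 to 101 CPM against 137 to 222 CPM, without overlap except with library totals alone (-1.24, SE 0.31). Light zone treated replicate 3 was the lowest of all. Ddx6, an RNA helicase of mRNA storage and decay, was at 26.6 to 74.4 against 57.1 to 167 CPM, and Nup214, a nuclear pore protein, at 24.7 to 60.2 against 53.2 to 112 CPM; both were separate within each treatment. Mprip, which ties myosin phosphatase to the cytoskeleton, was at 0.85, 5.74 and 17.5 CPM in light zone control against 69.1, 24.5 and 32.9 CPM in dark zone control libraries. In treated libraries it was at 19.4, 58.9 and 24.3 CPM against 149, 74.6 and 121 CPM, again without overlap within treatment (-2.07, SE 0.62). Zfp422, a zinc finger protein, was at 5.42 to 56.3 against 31.7 to 171 CPM, and Myzap, a protein of cell junctions, at 0.413 to 12.6 against 0.961 to 101 CPM. Myzap was lower in treated than in control libraries of the same zone in the means of both zones, and its zones overlapped among treated libraries. None of the genes of these 2 paragraphs other than Cd52 passed the edgeR threshold in any setting. DESeq2 called Cysltr2 (adjusted p = 0.00171), Prex1 (0.00207), Prdx6 (0.0357), Sssca1 (0.0446) and Myzap (0.047) of them, and not Cd52 or the rest.

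Other annexin and S100 genes were read beside Anxa2. In a list of 11 annexin and S100 genes, light zone values were above dark zone values in 8 and below them in 3 (median 0.18), and Anxa2 was the 1 lower member at an unadjusted p under 0.05. Anxa11, another annexin, also had lower means in the light zone in both treatments, at 0.468 to 12.9 CPM against 2.92 to 10.7 CPM with overlap (-0.84, SE 0.74; -1.42 without the 3 libraries). Differences between members were not tested. S100a10, whose protein joins with annexin A2 in a complex, was at 60.4, 64.1 and 102 CPM in light zone control against 53.5, 14.6 and 20.7 CPM in dark zone control libraries. In treated libraries it was at 0.585, 61.7 and 22.7 CPM against 4.77, 19.3 and 9.29 CPM, so light zone treated replicate 1 was the lowest of all 12 (1.35, SE 0.76). S100a11, a calcium-binding partner of annexin A1, was at 65.9 to 230 CPM against 25.3 to 147 CPM (0.995, SE 0.35).

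Antigen receptor signalling genes were split, with 9 of 24 higher (37.5%, beside 53.9% of all tested genes) and 15 lower and a median of -0.10. Cr2, the complement receptor CD21, was at 36.3 to 117 CPM in the light zone and at 20.9 to 35.0 CPM in the dark zone, without overlap (1.11, SE 0.34). With library totals alone its zones overlapped. Rasgrp3, which links the receptor to Ras, was at 73.4, 93.0 and 89.1 CPM in light zone control against 189, 293 and 144 CPM in dark zone control libraries. In treated libraries it was at 168, 187 and 157 CPM against 252, 209 and 173 CPM. The difference was -1.29 (SE 0.32) in control, where zones were separate, and -0.31 (SE 0.32) in treated libraries, where they overlapped; the interaction of 0.98 (SE 0.45) had an unadjusted p of 0.0522 and did not pass.

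Metabolic, ribosomal protein and interferon lists were compared in the same way, beside the 53.9% of all tested genes that were higher. Of 42 genes of oxidative phosphorylation 34 were higher over 12 libraries (median 0.23) and 13 with a term for the 3 libraries (median -0.08), so the direction of this list turned. Ribosomal protein genes were higher in 42 of 48 (median 0.20), and 35 were higher in both treatments, with 0 at an unadjusted p under 0.05. Without the 3 libraries 45 of 48 were higher (median 0.23), 5 of them at an unadjusted p under 0.05, and with the term 42 were (median 0.11); the median was 0.10 to 0.30 when a library was left out, the lowest without light zone treated replicate 1. Glycolysis genes were lower in 15 of 20 (median -0.30; -0.07 without the 3 libraries); Pgk1, phosphoglycerate kinase, was at 83.1 to 203 against 182 to 268 CPM. Of 19 interferon-stimulated genes 12 were higher (median 0.20), with Xaf1, a proapoptotic interferon-induced gene, at 9.85 to 62.3 against 8.60 to 40.9 CPM. Cholesterol synthesis genes were lower in 15 of 21 (median -0.14). Mcm3, a part of the replicative helicase, had the smallest p of the S phase list and did not reach an unadjusted p under 0.05 (-0.92, SE 0.45).

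Markers of other cells were read beside these results, since in bulk libraries fewer cells of a type and less RNA per cell cannot be told apart. The counts below stand beside 53.9% of all tested genes higher in the light zone. Of 13 genes of naive and follicular B cells 9 were higher in the light zone, with a median of 1.12 that was -0.20 without light zone treated replicate 2. Cd38, which mouse germinal center B cells carry at low levels and other B cells at high levels, was at 19.2 to 114 CPM in the light zone and at 2.61 to 29.5 CPM in the dark zone (1.99, SE 0.61). Foxp1, a transcription factor of resting B cells, was at 51.0 to 103 against 84.0 to 146 CPM (-0.49, SE 0.20). The part of such cells in the zone differences was not tested. Of 16 T cell markers 10 were higher (median 0.33, and -0.10 without the 3 libraries), and their summed level was 198.7 to 607.6 CPM in the light zone and 244.4 to 382.7 CPM in the dark zone. Cd3g encodes the gamma chain of CD3, which T cells use to signal, and it stood at 17.5, 22.7 and 25.5 CPM in light zone control and at 11.8, 10.52 and 28.5 CPM in light zone treated libraries. In the dark zone it was at 0.206, 0 and 0.159 CPM in control and at 1.58, 4.77 and 0.761 CPM in treated libraries, without overlap. Its partner Cd3e was at 0.746 to 10.6 CPM against 0.658 to 4.36 CPM, and Cd4 and Cd8a were at 0 to 0.16 CPM in the 9 libraries that did not stand apart, and the zones overlapped for each of these 3 genes. Of 17 macrophage markers 11 were higher (median 0.34, and -1.17 without light zone treated replicate 2), with 0 at an unadjusted p under 0.05. Of 7 erythroid markers 6 were lower (median -2.03, and 0.88 without dark zone control replicate 1, where Hba-a1 was at 524 CPM). Of 5 tested dendritic cell markers 3 were higher (median 0.45), and 4 with a term for the 3 libraries. Siglech, a receptor of plasmacytoid dendritic cells, was at 0.517 to 3.08 CPM in the light zone and at 0.240 to 0.664 CPM in the dark zone, separate within each treatment (1.99, SE 0.63). Flt3, a cytokine receptor of dendritic cells and their progenitors, was at 11.1 to 84.7 CPM in the light zone and at 38.1 to 167 CPM in the dark zone (-1.07, SE 0.42). The lists of neutrophil, NK and stromal cells had 3, 3 and 4 tested members, of which 1, 3 and 3 were higher. Among them S100a9, a calcium-binding protein of neutrophils, was at 0 to 0.724 CPM in the light zone and at 0 to 14.6 CPM in the dark zone, highest in treated dark zone replicate 2, and had an unadjusted p of 0.0129 in edgeR; the part of such cells was not tested. Strand is lost with these kits, and reads of 10 named genes (Bcl2a1b, Nhp2, Nup214, Gnl3, Cdc20, Ccna2, Manf, Foxp1, Bcl6 and Cd52) may belong to a second protein-coding gene whose exons overlap theirs.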

How the data were processed

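RNA was measured in 12 libraries of sorted germinal center B cells, made with the SMART-Seq v4 and Nextera XT kits per the labels' protocols. BWA and mm10 are named in the submitters' processing notes; for counter and annotation, nothing is stated in the labels. The authors deposited expected counts per gene symbol, unscaled. Blanks were read as 0 and values that were not whole, in 724 to 1301 symbols per library, were rounded up. Their origin is not stated, so values of some genes may not be counts of reads per gene.

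Zones were compared with edgeR 4.0.16 in R 4.3.3 (robust quasi-likelihood test, TMM, filterByExpr set to 10 counts and a total of 15), with treatment as a covariate, and p-values were adjusted by Benjamini-Hochberg over 12081 genes at a threshold of 0.05. Zone differences within each treatment and the interaction came from a fit of 4 group means. The SE is the difference divided by the square root of F. Log2 CPM values for the exact permutation tests used a prior count of 2. DESeq2 1.42.0, limma 3.58.1 (voom), other scalings and filters, a replicate block and leaving out each library were tried, and so were, chosen after seeing the data, leaving out the 3 libraries with fewer than 100 blank symbols or giving them a term. The fit was also run on data simulated with the fitted spread and with a set low spread. Its check on calls used only the low spread, so it does not show how many changes are missed in these libraries.

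The rule for named genes took those past the threshold and, where fewer than 10 per direction passed, filled up to 10 by the smallest p among genes with a 2-fold difference, 10 CPM in the higher zone and 1 sign in both treatments; it added up to 4 genes of each of 30 lists and a fixed set, part of which is not reported here. Members, lists and markers were chosen with earlier results of these data known. Promoter windows are from RefSeq (GRCm38.p6), gene positions from GENCODE M21.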

Additional observations from a re-analysis of the deposited data

Results flagged for a closer look

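Among 76 genes, each with 6 light zone and 6 dark zone libraries (152 groups), 17 groups had 1 library far from the rest. Its gap to the nearest library was above 0.625 of the whole range on the log2 CPM scale (prior count of 2). The values below are in CPM, where the gap can be a smaller share of the range. Chance marks about 1 group in 20. In the light zone, treated replicate 2 was the low library for 8 of them, in CPM: Nifk at 94.4 (nearest 199), Nhp2 at 249 (nearest 633), Ctss at 338 (nearest 621), Npm1 at 337 (nearest 806), Gnl3 at 48.9 (nearest 102), Ssr4 at 49.1 (nearest 192.5), Manf at 158 (nearest 613) and Cd52 at 2509 (nearest 7603). It was also the 1 light zone library with any value for Hist2h2ab, at 0.103 CPM, and the highest for S100a9, at 0.724 CPM (nearest 0.0574). This replicate is among the 3 libraries that stood apart in symbols with counts.

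Ada was at 27.4 CPM in light zone treated replicate 3, with the nearest at 63.3, and S100a10 at 0.585 CPM in light zone treated replicate 1, with the nearest at 22.7. In the dark zone, Cxcr4 was at 16.5 CPM in control replicate 2 (nearest 77.9) and Nop58 at 68.0 CPM in control replicate 1 (nearest 129.5). Bcl6 was at 265 CPM in control replicate 1 (nearest 93.2). Bcl2l11 was at 5.41 CPM in control replicate 3 (nearest 21.9), and Prdx6 at 137 CPM in treated replicate 2 (nearest 87.1).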

How the results depend on the processing

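The pooled zone comparison called 0 genes under edgeR with each other scaling, filter and model tried, except that a term for the 3 libraries that stood apart gave 2, and DESeq2 gave 23. The interaction was called in 0 genes under edgeR and limma-voom and in 16 under DESeq2. Leaving out each library in turn gave 0 to 0 calls for both, and 351 to 1164 genes at an unadjusted p under 0.05 in the pooled comparison and 164 to 1218 for the interaction, the highest of both without light zone treated replicate 2. A replicate block called 0 genes (539 at an unadjusted p under 0.05; interaction 0 and 238). Same-numbered libraries of the zones correlated above 0.1 in 3 of 6 pairs, and 2 of 6 dark zone libraries correlated best with their own number. With 3 libraries per group this cannot tell whether the numbers mark a pairing.

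The count of genes with 1 sign in both treatments was 6246 to 7005 when a library was left out. The marker differences were then 1.41 to 2.05 (Cd83), 1.84 to 2.44 (Cd86) and -1.71 to -1.51 (Anxa2). Signs turned for Foxo1 (0.10 with the term, 0.24 without the 3 libraries, and -0.43 to 0.056 when a library was left out, the latter without dark zone control replicate 1), Gpr183 (0.32 under limma-voom, and -1.41 to 0.049 when a library was left out, the latter without dark zone control replicate 2), Il21r (0.016 with the term) and Il4ra (0.16 with the term, 0.030 without the 3 libraries); the cause was not tested. No overlap of the 6 and 6 libraries was met by 23 genes, by 30 with library totals alone and, among the 9 libraries left without the 3, by 300. Whether depth or the spread between libraries limits the comparison more was not tested.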
